A study of Acipenser dabryanus with 12 samples.

Results

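The transcriptome of liver was compared with that of spleen in Yangtze sturgeon (Acipenser dabryanus), a freshwater fish of the upper Yangtze River, by RNA sequencing. The comparison used the 4 liver and 4 spleen libraries of a series of 12, chosen by their labels. The remaining 4 libraries are from brain and took no part in the main comparison. They served as an outside reference, for choosing some sets of IDs and in an alternative fit of all 12 libraries. The fish were about 6 months old and had been fed a diet containing either soybean oil or fish oil once a day for 7 weeks, and were sampled 1 h before the meal or 1 h after it. Each tissue had 1 library for each of the 4 combinations of diet and meal, so a liver and a spleen library were matched by combination. All 40 fish of the trial were kept in 2 ponds, 1 per diet, and the labels name no genotype or strain. Diet therefore cannot be told apart from pond, nor the meal from the hour of sampling. The labels speak of 3 samples per group and time point and of 45 libraries, while each combination had 1 column per tissue here. Whether a column stands for 1 fish, pooled fish or several libraries is not stated, so the p-values measure only the spread between these columns, called libraries here.

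The liver makes most of the proteins of blood plasma, among them lipoproteins, transport proteins and clotting and complement factors. It also handles fat, sugar, bile acids and nitrogen, and its main cell, the hepatocyte, fills most of the organ. The spleen filters blood, removes old red cells and holds lymphocytes and macrophages, and in fish, which lack lymph nodes, it is a main site of immune responses. In fishes it can also take part in making or storing blood cells.

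Values were TPM, an abundance per transcript length scaled so that every library has the same total, for IDs of a de novo assembly, each standing for 1 assembled gene. No gene name accompanies an ID, so neither tissue label could be checked against marker genes and no pathway could be described by name. In bulk tissue, fewer cells of a type and less RNA per cell cannot be told apart. Sequencing depth cannot be read from TPM, and counting intervals are therefore left out. Of 280408 IDs, 64626 reached 1 TPM in at least 2 of the 8 libraries and were tested.

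At a limit of 1 TPM, liver libraries held fewer detected IDs than spleen libraries. At 1 TPM or more, the soybean oil livers had 29749 IDs before and 40932 after the meal, and the fish oil livers had 41124 and 46726. The soybean oil spleens had 48131 IDs before and 60507 after the meal, and the fish oil spleens had 62193 and 47226. Every liver lay below every spleen, but the fish oil liver after the meal and the fish oil spleen after the meal were close. The means were 39630 ± 7116 in liver and 54510 ± 7932 in spleen (SD, n = 4 each; exact two-sided permutation p = 0.0286, the smallest that 4 against 4 can give). Matched by combination, liver was lower in 4 of 4 pairs, where the exact sign-flip test cannot go below 0.125. Without the fish oil spleen before the meal, the exact permutation p was 0.0571, the smallest that 4 against 3 can give. At a limit of 0.1 TPM with all 8 libraries, the exact permutation p was 0.171. The tissues overlapped at that limit, with 101610 IDs in the fish oil liver after the meal and 94692 in its matched spleen.

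The shares of TPM held by the 10 highest IDs and by ranks 11 to 100 overlapped between the tissues. The shares of the ranks after 100 did not. The 10 highest IDs took 15.0% to 22.4% of TPM in liver and 14.6% to 22.1% in spleen. Ranks 11 to 100 took 29.7% to 33.7% in liver and 23.6% to 32.6% in spleen. IDs ranked after the first 100 and up to 1000 took 25.4% to 28.2% in the 4 livers and 16.9% to 18.1% in the 4 spleens. All IDs beyond rank 1000 together took 17.7% to 28.6% in liver and 32.2% to 43.7% in spleen. The number of IDs that made up 50% of TPM was 72 to 141 in liver and 93 to 419 in spleen (exact permutation p = 0.286, n = 4 each). Spleens themselves differed in that number, with 107 and 249 in the soybean oil spleens before and after the meal and 419 and 93 in the fish oil spleens. With the 10 highest IDs of each library set aside, the counts were 123 to 229 in liver and 270 to 1125 in spleen and did not overlap (exact permutation p = 0.0286, n = 4 each).

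**Figure D1:**
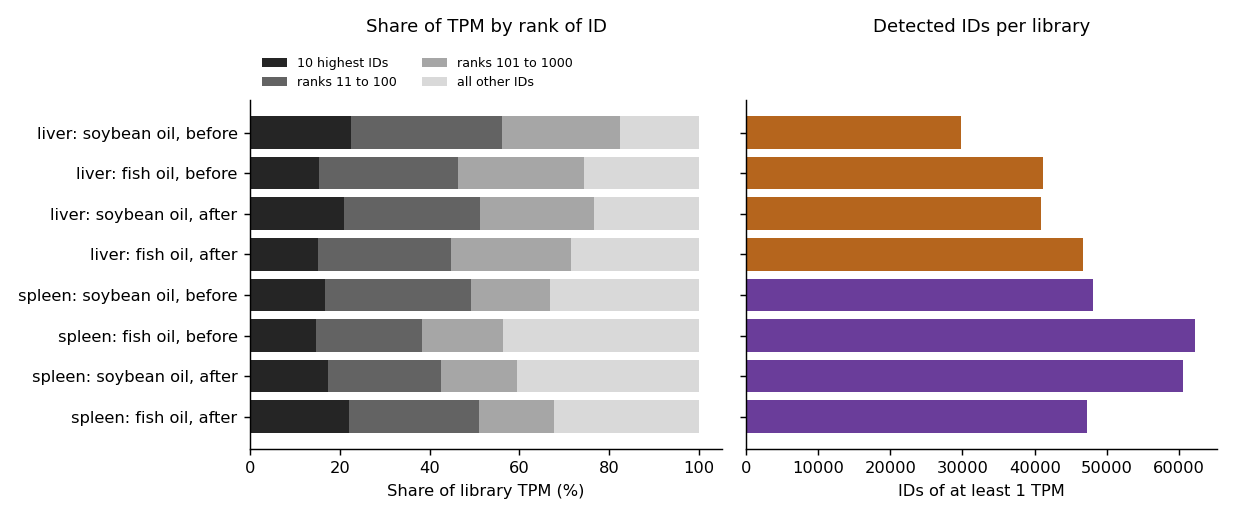
Left, stacked share of each library's TPM (%) held by the 10 highest IDs, ranks 11 to 100, the next ranks up to 1000 and all other IDs; right, number of IDs of at least 1 TPM. Each bar is 1 library, named by tissue, diet and sampling before or after the meal. The livers hold 29749 to 46726 detected IDs and the spleens 47226 to 62193, and the ranks after 100 up to 1000 take a larger share in every liver than in any spleen.

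Between liver and spleen, 27625 of the 64626 tested IDs (42.7%) differed in limma, a linear model fitted across all IDs on log2(TPM + 1), with the combination of diet and meal as a block. The threshold was a Benjamini-Hochberg adjusted p of 0.05. Of these, 6617 IDs (10.2% of those tested) were higher in liver and 21008 (32.5%) were higher in spleen. Liver thus took 24.0% of the calls on TPM as deposited, a split that moved with the scaling: it was 40.6% after median-ratio scaling, with 9543 IDs (14.8%) higher in liver and 13937 (21.6%) higher in spleen. After quantile normalization, which gives all libraries one distribution, it was 47.8%, with 11173 (17.3%) and 12222 (18.9%). The median tested ID lay at a log2 difference, liver minus spleen, of -0.60 on TPM as deposited, -0.26 after median-ratio scaling and -0.14 after quantile normalization. No ID called under either scaling was called in the opposite direction on TPM as deposited.

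Separation of the libraries, counted on the same TPM as deposited, followed the same split. It was not counted under the rescalings, so the limit set by scaling applies here too. The lowest liver exceeded the highest spleen for 6558 IDs (10.1%), and the lowest spleen exceeded the highest liver for 21299 (33.0%). Across the tested IDs, Pearson's r on log2(TPM + 1) was 0.849 to 0.887 between livers, 0.806 to 0.852 between spleens and 0.408 to 0.531 between a liver and a spleen, given as a description, since IDs are not independent replicates.

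**Figure D2:**
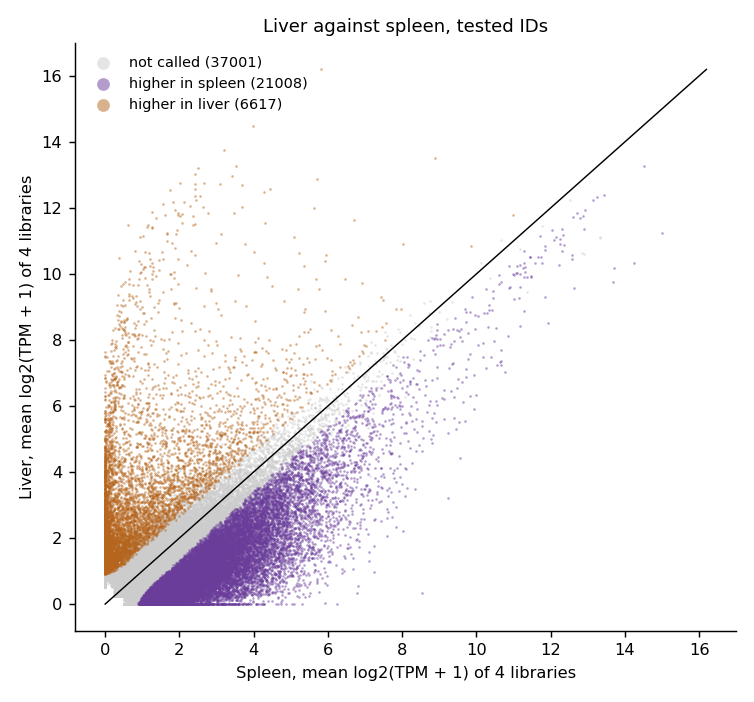
Each point is 1 of the 64626 tested IDs, at its mean log2(TPM + 1) over 4 spleens (horizontal) and 4 livers (vertical), coloured by whether limma called it higher in liver, higher in spleen or neither; the line marks equal values. Some of the 6617 liver calls lie far up the left edge, at high liver and near-zero spleen values. The median liver call has a log2 difference of 1.80, and 543 (8.21%) are at least 32-fold higher in liver. The 21008 spleen calls lie mostly in a band below the line.

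Liver held more of the largest called differences. Among IDs higher in liver, the median log2 difference was 1.80 with quartiles of 1.23 and 2.85, and among IDs higher in spleen it was -1.51 with quartiles of -1.13 and -2.06 (median SE 0.28 and 0.26). At least 8-fold differences were called for 1502 IDs higher in liver and 1423 higher in spleen. At least 32-fold differences were called for 543 IDs higher in liver and 39 higher in spleen, and at least 128-fold differences for 220 and 1. The folds come from log2(TPM + 1) values, where adding 1 shrinks the difference of an ID of low TPM. The order at 32-fold held under both rescalings, at 592 against 24 after quantile normalization and 654 against 10 after median-ratio scaling. The sizes of these contrasts depended on the added constant. With 0.1 in place of 1, 1595 IDs against 796 were at least 32-fold higher in liver and in spleen. The split at 8-fold had no stable direction, with 1895 against 760 after quantile normalization, 1866 against 690 after median-ratio scaling and 4173 against 7348 with 0.1 added.

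On TPM as deposited, abundance went with direction. IDs were sorted into classes by their mean TPM in the tissue where they were higher, before any rescaling. Under 5 TPM, 2929 of 43516 IDs were called higher in liver and 9435 higher in spleen. Between 5 and 20 TPM the counts were 2097 and 8331 of 15321 IDs. Between 20 and 100 TPM they were 1070 and 2691 of 4598 IDs. The most abundant classes were nearly even, with 357 and 407 of 867 IDs between 100 and 500 TPM and 164 and 144 of 324 IDs at 500 TPM or more. In that top class the median log2 difference was 1.37, on the liver side, although the median of all tested IDs was on the spleen side. Rescaling changed the classes unequally. In the lowest class liver took 23.7% of calls on TPM as deposited, 46.5% after median-ratio scaling and 61.7% after quantile normalization. In the 5 to 20 TPM class it took 20.1%, 33.1% and 37.0%, so spleen calls were the majority there under all 3 scalings. In the 100 to 500 TPM class it took 46.7%, 54.6% and 43.6%, so the majority there changed side with the scaling. In the top class it took 53.2%, 66.9% and 51.6%, with the median on the liver side in each. After quantile normalization the lowest class thus had the largest liver share of calls.

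**Figure D3:**
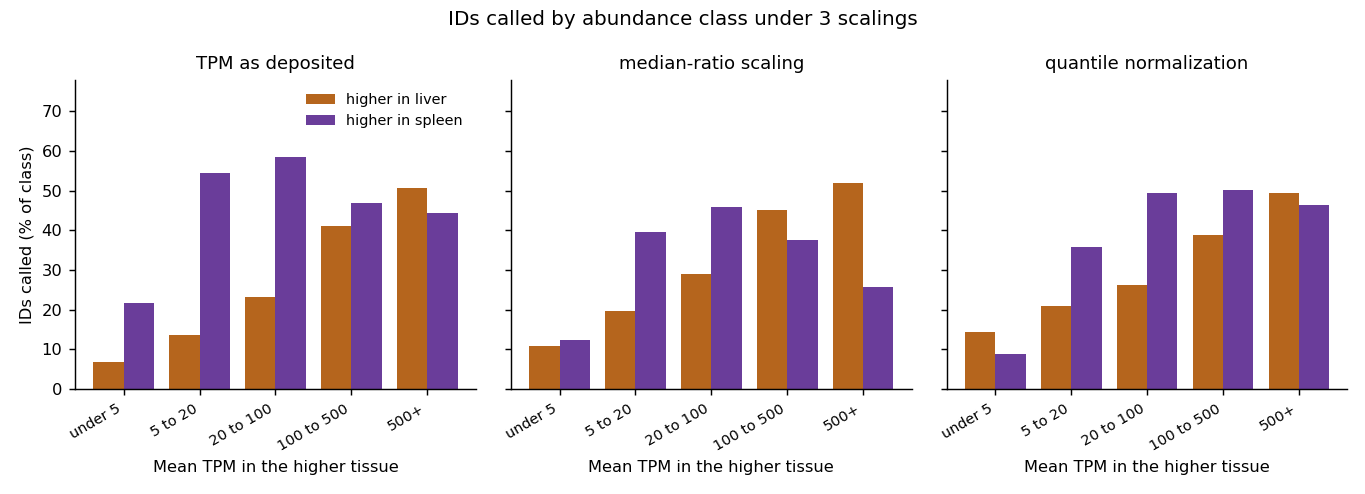
Share of IDs (%) called higher in liver or higher in spleen within 5 classes of mean TPM in the higher tissue, on TPM as deposited and after 2 rescalings. Spleen bars exceed liver bars between 5 and 100 TPM in every panel, and liver bars exceed spleen bars at 500 TPM or more in every panel.

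The single IDs described here were named for large differences in every pair, so they do not show the typical separation. TRINITY_DN111229_c2_g1 had 2541 TPM before the meal and 3261 TPM after it in livers of the soybean oil diet, and 4523 and 1834 TPM in livers of the fish oil diet. In spleen it was at 4.51 TPM in the fish oil library before the meal and was listed at 0 in the other 3. No spleen came near any liver, and the fish oil spleen before the meal was the one with a value above 0. Its log2 difference was 10.88 ± 0.34 (SE; limma adjusted p = 3.2e-05), and 11.27 without that spleen (limma adjusted p = 6.97e-05).

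TRINITY_DN130313_c4_g1 varied less between livers, at 2491 and 2682 TPM with soybean oil and 3077 and 3206 TPM with fish oil, before and after the meal. In the spleens it stood at 0.75 and 1.09 TPM with soybean oil and 4.1 and 0.3 TPM with fish oil. The fish oil spleen before the meal was again the highest of the 4. The log2 difference was 10.33 ± 0.33 (SE; limma adjusted p = 3.3e-05), with a smallest difference over the 4 pairs of 9.24.

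On the spleen side, TRINITY_DN125752_c2_g1 had 476 TPM before the meal and 399 TPM after it in spleens of the soybean oil diet, and 314 and 305 TPM in spleens of the fish oil diet. The livers had 0.01 and 0.52 TPM with soybean oil and 0.02 and 0.64 TPM with fish oil. It was the 1 ID called at least 128-fold higher in spleen. Its log2 difference was -8.18 ± 0.25 (SE; limma adjusted p = 3.2e-05). TRINITY_DN108737_c0_g1 had 70.2 and 54.5 TPM in spleens of the soybean oil diet and 57 TPM in both spleens of the fish oil diet. It was listed at 0 in 3 livers and at 0.08 TPM in the fish oil liver after the meal. Its log2 difference was -5.89 ± 0.19 (SE; limma adjusted p = 3.4e-05). In brain, the outside reference, it was at most at 0.36 TPM and TRINITY_DN125752_c2_g1 at most at 1.52 TPM. TRINITY_DN111229_c2_g1 and TRINITY_DN130313_c4_g1 were at 2.14 to 7.7 and 2.82 to 7.2 TPM in brain. All 4 IDs were named by a rule that required the call with and without the fish oil spleen before the meal. The rule ranked IDs by their smallest difference over the 4 pairs, so their size and consistency were set by the choice.

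**Figure D4:**
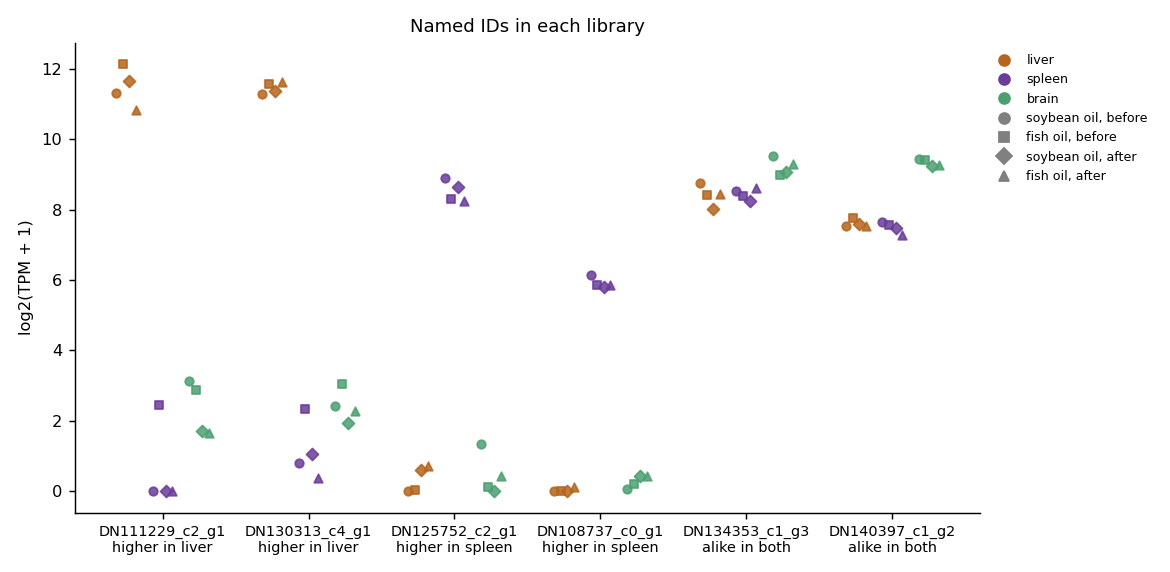
log2(TPM + 1) of 6 named IDs in each library, with liver, spleen and brain in separate colours and a marker for each combination of diet and meal. The first 2 IDs lie above 10 in every liver, the next 2 lie below 1 in every liver and far above that in every spleen, and the last 2 overlap between liver and spleen.

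Presence and absence were counted apart from the test. IDs of at least 1 TPM in all 4 livers numbered 21464, and 29413 reached this in all 4 spleens. The 15736 that did so in all 8 libraries were 73.3% of the liver IDs and 53.5% of the spleen IDs. Liver nevertheless held more IDs that were listed at 0 throughout the other tissue, 604 (2.81% of its IDs) against 363 (1.23%). The counts were also taken with a library left out. This loosens the rule, so the counts can only stay or rise, whichever library it is. Without the fish oil spleen before the meal they were 820 in liver and 471 in spleen. Without the fish oil spleen after the meal they were 663 and 589, and without the soybean oil spleen before the meal 678 and 586. Without the fish oil liver before the meal they were 676 and 555, and without the soybean oil liver before the meal 916 and 460. Such liver IDs had a median of 5.4 TPM, reached 199 TPM and included 174 of at least 10 TPM. The spleen IDs had a median of 3.82 TPM, reached 102 TPM and included 49 of at least 10 TPM. A value of 0 in a TPM file says only that the ID is listed at 0. In brain, 291 of the 604 liver IDs and 43 of the 363 spleen IDs were also listed at 0 in all 4 libraries.

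The highest ranks of both tissues shared a core. Among the 100 highest IDs of each library, 80 were found in all 4 livers and 85 in all 4 spleens. The 20 IDs common to both lists were 25% of the liver list and 23.5% of the spleen list. The liver list took 39.6% to 51.6% of liver TPM and 15.6% to 19.1% of spleen TPM. The spleen list took 36.1% to 48.8% of spleen TPM and 11.5% to 17.1% of liver TPM. Of the liver list, 61 IDs were called higher in liver and 17 higher in spleen, and of the spleen list 76 were called higher in spleen and 1 higher in liver. All 17 liver-list IDs that were higher in spleen belonged to the 20 shared IDs. These calls are on TPM as deposited, where 10.2% of all tested IDs were higher in liver and 32.5% higher in spleen. They were not counted under the rescalings. In all 4 spleens, 4 IDs of the liver list were below 5 TPM, and no ID of the spleen list was below 5 TPM in all 4 livers. Membership of these lists was set by the same values, so the counts are a description.

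IDs abundant in both tissues were also compared. At least 100 TPM in all 8 libraries was reached by 210 IDs, of which 142 (67.6%) were called higher in spleen, 13 (6.19%) higher in liver and 55 neither, beside 32.5% and 10.2% of all tested IDs. All tested IDs are not a reference of like abundance. By mean TPM in the higher tissue, 46.9% of IDs at 100 to 500 TPM and 44.4% at 500 TPM or more were higher in spleen. The shares higher in liver were 41.2% and 50.6%. A limit of 100 TPM in all 8 libraries also leaves out IDs that are low in either tissue. The split of the 210 IDs depended on the scaling, at 62 and 36 with 112 not called after median-ratio scaling and 162 and 3 after quantile normalization. On TPM as deposited, 45 of the 210 (21.4%) had a 95% interval within 2-fold in either direction, as did 7745 IDs (12%) of all tested. With soybean oil, TRINITY_DN134353_c1_g3 had 432 TPM before the meal and 257 TPM after it in liver, and 371 and 304 TPM in spleen. With fish oil it had 345 and 347 TPM in liver and 333 and 389 TPM in spleen. Its log2 difference was -0.03 with a 95% interval of -0.40 to 0.33 (limma adjusted p = 0.88). TRINITY_DN140397_c1_g2 had 184 to 216 TPM in liver and 154 to 201 TPM in spleen, with a log2 difference of 0.12 and a 95% interval of -0.25 to 0.49 (limma adjusted p = 0.543). Neither was level under every scaling. TRINITY_DN134353_c1_g3 was higher in liver by 0.62 after median-ratio scaling (limma adjusted p = 0.0418) and lower by a log2 difference of -0.79 after quantile normalization (limma adjusted p = 0.0107). TRINITY_DN140397_c1_g2 was at 0.77 after median-ratio scaling (limma adjusted p = 0.0108) and at -0.36 after quantile normalization (limma adjusted p = 0.107).

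The called IDs held most of the RNA in their own tissue. IDs higher in liver took 59.2% to 66.8% of TPM in the livers and 1.98% to 2.61% in the spleens. IDs higher in spleen took 67.3% to 75.8% in the spleens and still 17.5% to 23.1% in the livers. The contrast between the tissues themselves is set by the choice of IDs. Brain, which took no part in it, gave 5.3% to 6.54% of its TPM to the IDs higher in liver and 50.9% to 64.1% to those higher in spleen. The brains had 52435 to 78832 IDs of at least 1 TPM, against 29749 to 46726 in the livers and 47226 to 62193 in the spleens. The part of library breadth in the brain values was not tested. Both sets are calls on TPM as deposited and were not redrawn under the rescalings. A mean of at least 1 TPM in brain was reached by 53.8% of the IDs higher in liver, 85.2% of those higher in spleen and 67.7% of all tested IDs. The median brain level was 1.25 TPM for IDs higher in liver and 4.52 TPM for IDs higher in spleen, against medians of 6.06 TPM in liver and 5.78 TPM in spleen for the same sets in their own tissue.

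The matched pairs gave a similar picture for 3 of the 4 combinations. The median log2 difference was -0.60 with soybean oil before the meal, -0.70 with soybean oil after it, -0.74 with fish oil before it and -0.04 with fish oil after it. In the first 3 pairs, 6422 to 8600 IDs were at least 2-fold higher in liver and 24119 to 26959 at least 2-fold higher in spleen. In the fish oil pair after the meal the counts were 14152 and 18185. After median-ratio scaling this pair had 16469 and 15173 such IDs, and the other 3 pairs 9017 to 11834 and 16104 to 17410. That pair joined the liver with the most detected IDs, 46726, to the spleen with the fewest, 47226; the part of library breadth in the result was not tested. When either library of this pair was left out, the spleen calls numbered 22724 to 22969 and the liver calls 5407 to 5636. When any of the 6 libraries of the other pairs was left out, the spleen calls numbered 13499 to 14243. The lowest counts were 13499 without the soybean oil spleen after the meal, 13735 without the soybean oil liver after it and 13890 without the soybean oil spleen before it. The difference was positive in all 4 pairs for 8638 IDs (13.4%) and negative in all 4 for 25564 (39.6%). Differences of different pairs, which share no library, correlated across IDs at r = 0.702 to 0.76, again as a description.

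The fish oil spleen before the meal held more liver transcripts than the other spleens. It was singled out for this from earlier results of these same data, so its rank is a description. To keep the measured library out of the choice, liver-restricted IDs were chosen for each spleen in turn. They had at least 100 TPM in every liver and at most 1 TPM in each of the other 3 spleens. For the fish oil spleen before the meal, 119 such IDs summed to 224.6 TPM, or 0.377% of their mean sum in liver, and 70 of them reached 1 TPM. The same 119 IDs summed to 525 to 823 TPM in the brains, more than in this spleen. They were thus restricted to liver only with respect to the other spleens. The corresponding sum in the soybean oil spleen before the meal was 24.69 TPM over 53 IDs, or 0.168%. In the soybean oil spleen after the meal it was 26.51 TPM over 54 IDs, or 0.182%, and in the fish oil spleen after the meal 9.14 TPM over 50 IDs, or 0.0743%. The sets are unlike, since those of the other 3 spleens leave out every ID above 1 TPM in the fish oil spleen before the meal. With the limit in liver lowered to 20 TPM, the fish oil spleen before the meal held 0.442% and the soybean oil spleen after the meal 0.339%, with 0.228% and 0.144% in the other 2. Under both limits, the order of the spleens in this share was also their order in detected IDs. These numbered 62193 with fish oil before the meal, 60507 and 48131 with soybean oil after and before it, and 47226 with fish oil after it. The part of library breadth in the excess was not tested. With 1 library for each combination there is no replicate against which to test the excess.

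A single set chosen without any spleen gave the same order. The 68 IDs of at least 100 TPM in every liver and at most 1 TPM in every brain stood at 0.389% of their liver level in the fish oil spleen before the meal, 0.188% and 0.17% in the soybean oil spleens after and before it, and 0.0648% in the fish oil spleen after it. The first of these was the highest of the 4 spleens for 53 of the 68 IDs. TRINITY_DN133476_c1_g1, at 3193 to 4922 TPM in the livers, was at 16.5 TPM in the fish oil spleen before the meal and between 0 and 0.55 TPM in the other 3. TRINITY_DN115311_c7_g1, at 111 to 180 TPM in the livers, was at 7.38 TPM there and between 0 and 0.08 TPM in the others. In brain they were at 0.53 to 11.82 TPM and 0.15 to 3.99 TPM. Both were named for the size of this excess.

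**Figure D5:**
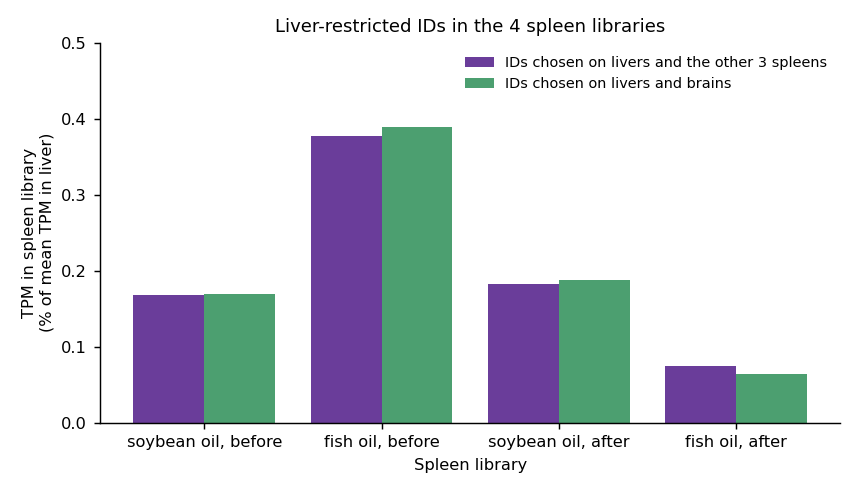
Summed TPM of liver-restricted IDs in each spleen library, as a percentage of their mean sum over 4 livers, for IDs chosen on livers and the other 3 spleens and for IDs chosen on livers and brains. The fish oil spleen before the meal stands at 0.377% and 0.389%, and the other 3 spleens between 0.0648% and 0.188%.

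Leaving that spleen out lowered the counts of calls. Without it, 4857 IDs (7.52%) were called higher in liver and 14058 (21.8%) higher in spleen by limma. Of the 6617 liver calls 4729 remained, and of the 21008 spleen calls 13745 remained, while no ID was called in the opposite direction. The fit without that spleen has 3 complete pairs in place of 4, so its matched liver no longer informs the difference. These 3 pairs are also in the full fit, which leaves little room for a change of direction. The fall in counts was not particular to this spleen. Without its matched liver the liver and spleen calls were 4692 and 14243. Without the soybean oil spleen after the meal they were 4699 and 13499. At least 32-fold differences numbered 537 in liver and 37 in spleen, against 543 and 39 with it.

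Spleen transcripts in liver were looked for in the same way. IDs of at least 20 TPM in every spleen and at most 1 TPM in each of the other 3 livers held 1.16% of their spleen level in the soybean oil liver sampled before the meal and 1.47% in that after it. The fish oil livers held 1.29% and 2.32%. The fish oil liver after the meal was the highest, with 14 of 43 IDs at 1 TPM or more against 4 of 33 to 7 of 36 in the others. It also had the most detected IDs of the livers, 46726, and the soybean oil liver before the meal the fewest, 29749. The part of library breadth in these levels was not tested. The sets are unlike, since those of the other livers leave out every ID above 1 TPM in the fish oil liver after the meal. The sets were small, with sums of 47.92 TPM in that liver and 21.34 to 24.52 TPM in the others, and the levels depended on how they were chosen. At a limit of 10 TPM in spleen, the fish oil livers held 3.46% before the meal and 3.52% after it, and the soybean oil livers 2.49% and 2.6%. For the 6 IDs chosen on brain the levels ran from 20.6% to 96.3%. That choice set no limit in liver, so those IDs were not restricted to spleen with respect to liver.

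Whether the difference between liver and spleen itself changed with diet or with the meal was asked with interaction terms in a model of 6 coefficients, which leaves 2 residual degrees of freedom. For diet, limma called 0 of 64626 IDs (0.0%), and 2472 (3.83%) had an unadjusted p under 0.05. For the meal it called 0 (0.0%), and 2699 (4.18%) had an unadjusted p under 0.05. These unadjusted counts moved with the tissue of a library left out. Such a fit has no residual degree of freedom in that tissue, so its residual spread comes from the other tissue alone. Leaving out a spleen library gave 8859 to 13136 IDs for diet and 8194 to 13719 for the meal, and leaving out a liver library 1418 to 1514 and 1452 to 1615, with 0 called by limma in each case. With all 8 libraries the lowest adjusted p was 0.9999 for diet and 1 for the meal, and the median SE of the interaction was 0.61 on the log2 scale, against 0.31 for the difference between tissues. At this precision, 0 calls do not show that the tissues respond alike.

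Some IDs had interaction values of one sign in both comparisons without passing the test, which the rule for naming them required. TRINITY_DN125246_c3_g3 was listed at 0 in both soybean oil livers and in both fish oil spleens. The fish oil livers had 10.2 and 5.44 TPM and the soybean oil spleens 9.48 and 17.3 TPM, before and after the meal. Its liver to spleen difference was lower with soybean oil by a log2 value of -6.88 ± 0.59 (SE; limma adjusted p = 0.9999). TRINITY_DN122241_c9_g1 had 34.5 and 29.6 TPM with fish oil and 6.1 and 0 TPM with soybean oil in the spleens. In the livers it was at 5.36 and 4.79 TPM with soybean oil and listed at 0 with fish oil. The difference was higher with soybean oil, by 6.23 ± 1.0 (SE, log2; limma adjusted p = 0.9999).

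For the meal, TRINITY_DN135784_c2_g3 went from 3.79 to 13.8 TPM in the soybean oil livers and from 0 to 14.5 TPM in the fish oil livers. In the spleens it went from 12.6 TPM with soybean oil and 4.74 TPM with fish oil before the meal to 0 in both after it. The liver to spleen difference was higher after the meal by 5.94 ± 1.01 (SE, log2; limma adjusted p = 1). TRINITY_DN119327_c0_g5 had the opposite pattern, at 5.05 and 11.9 TPM in the livers before the meal, 4.53 and 0 TPM after it, and 0 and then 20.9 and 11.1 TPM in the spleens, each with soybean oil first. Its interaction value was -5.94 ± 1.34 (SE, log2; limma adjusted p = 1). All 4 of these IDs were listed at 0 in at least 1 liver and at least 1 spleen.

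Some assembled loci had IDs on both sides. Trinity, the assembler, groups IDs into components, whose members can be copies, isoforms or fragments of related genes and can divide reads between them. Of 48252 components with a tested ID, 3888 had 2 or more called IDs. All called IDs were higher in liver in 647 components and higher in spleen in 2640, and in 601 (15.5%) there were called IDs in both directions. These mixed components held 10.1% of the IDs higher in liver and 3.35% of those higher in spleen, and the direction of such an ID is uncertain for the gene it belongs to. When TPM was summed over components before the fit, limma called 4651 of 51037 components (9.11%) higher in liver and 16414 (32.2%) higher in spleen.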

How the data were processed

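RNA was extracted with TRIzol, and TruSeq libraries were sequenced as 125-bp paired-end reads and assembled with Trinity, per the labels' protocols. These protocols describe liver dissection, although the spleen and brain libraries carry other tissue labels. The deposited files hold TPM per Trinity ID, 1 column per library. That unit was read from the values, each column adding up to 1000000. The tool that quantified them is not given in the sources used here.

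Groups came from the labels. The members, lists and rules were chosen with earlier results of these data known. IDs of at least 1 TPM in at least 2 of the 8 libraries entered limma 3.58.1 (R 4.3.3, trend and robust options) as log2(TPM + 1), with a block of 4 combinations of diet and meal (3 residual degrees of freedom), as matched libraries share pond and hour per the labels. Same-combination libraries deviated from their tissue means with r of -0.041 to 0.118. At most 2 IDs per direction and comparison are named: those called with and without the fish oil spleen before the meal, of at least 10 TPM in every library of the higher tissue, with the largest smallest pair difference. For interactions, where none was called, IDs averaging 5 TPM or more over the 8 libraries were ranked by the smaller of their 2 differences of one sign. Level IDs had at least 100 TPM in all 8 libraries and the smallest largest difference. Median-ratio scaling divided each library's TPM by its median ratio over 4059 IDs of at least 5 TPM in all 8 libraries (factors of 0.743 to 0.874 in liver and 1.11 to 1.41 in spleen). The fits were tested on simulated data in which only IDs of high abundance were changed, so calls at low TPM were not covered. Python 3.11.15, pandas 2.3.3, numpy 2.4.6, scipy 1.17.1 and matplotlib 3.10.9 were used. Sums over components and sets chosen on brain were added after seeing the data.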

Additional observations from a re-analysis of the deposited data

Results flagged for a closer look

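Dixon's ratio, with a critical value of 0.829, was used to find single libraries that lay far from the 3 others of their tissue; it picks about 1 in 20 groups by chance. Of 49 groups of values examined, 6 were flagged. Several of these IDs were chosen for extreme values, so the rate by chance is no fair reference. Where the 3 others are all at 0, the ratio is at its maximum for any value above 0. This holds for TRINITY_DN111229_c2_g1 in spleen and for TRINITY_DN108737_c0_g1 and TRINITY_DN97872_c0_g1 in liver, so those flags were fixed by the zeros. The fish oil spleen before the meal stood apart for TRINITY_DN111229_c2_g1 at 4.51 TPM, for TRINITY_DN133476_c1_g1 at 16.52 TPM and for TRINITY_DN115311_c7_g1 at 7.38 TPM. The last 2 were named for that excess. TRINITY_DN108737_c0_g1 was flagged at 0.08 TPM in the fish oil liver after the meal, against 0 in the other livers, and at 70.19 TPM in the soybean oil spleen before the meal, against 54.5 to 57 TPM. TRINITY_DN97872_c0_g1, another ID named for its diet interaction, was flagged at 4.53 TPM in the soybean oil liver after the meal, against 0 in the other livers.

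For 5 IDs named for their interaction values, the liver to spleen difference had one sign in both pairs of one diet or meal state and the opposite sign in both pairs of the other. For diet this was TRINITY_DN125246_c3_g3, with an interaction of -6.88. For the meal it was TRINITY_DN135784_c2_g3 at 5.94, TRINITY_DN111329_c1_g2 at 5.81, TRINITY_DN96082_c0_g1 at -5.82 and TRINITY_DN119327_c0_g5 at -5.94, all on the log2 scale. None passed the test of the difference itself (limma adjusted p = 0.9999 for diet and 1 for the meal).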

How the results depend on the processing

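Without the replicate block, 7065 IDs were called higher in liver and 22780 higher in spleen. Calls for liver and spleen were 4177 and 12767 with no filter (216541 IDs tested), 2818 and 8285 at a mean of at least 5 TPM (15058 tested), 11173 and 12222 after quantile normalization, and 13937 for spleen after median-ratio scaling. Leaving out each library gave 4573 to 5636 liver and 13499 to 22969 spleen calls. The median log2 difference was -1.03 with a pseudocount of 0.1, -0.15 with no filter, -1.01 at a mean of 5 TPM, -0.14 and -0.26 under the 2 rescalings, and -0.71 to -0.53 with a library left out. TRINITY_DN134353_c1_g3 reversed to 0.62 after median-ratio scaling. The 4 IDs named for the tissue difference kept their call and direction under each of 17 alternatives. They had been chosen for large differences in every pair and for the call without the fish oil spleen before the meal. Their stability is therefore no test of the calls in general. Interactions called 0 IDs under each alternative run; the lowest adjusted p over these was 0.1832 for diet and 0.1705 for the meal, and 1418 to 13136 and 1452 to 13719 IDs had an unadjusted p under 0.05 (limma) with a library left out.

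Detected IDs differed by -15334 at 0.1 TPM (exact permutation p = 0.171), by -14882 in the matched sign-flip test of the replicate block (exact p = 0.125) and by -17311 to -11587 with a library left out, where the exact permutation p cannot go below 0.0571. IDs making up 50% of TPM differed by -478.25 without the 10 highest IDs, and by -149.83 to -41.167 with a library left out. IDs listed in 1 tissue alone were 176 in liver and 42 in spleen at 5 TPM, and 663 to 916 and 460 to 589 with a library left out. The higher limit can only lower these counts, and leaving a library out can only keep or raise them. With at least 20 TPM in every liver, the soybean oil spleen after the meal held 0.339% of the liver-restricted level and the fish oil spleen before the meal 0.442%. The spleen-restricted level moved with the limits. For soybean oil and then fish oil livers, each before and then after the meal, it was 2.49%, 2.6%, 3.46% and 3.52% at a limit of 10 TPM. It was 5.15%, 4.85%, 5.83% and 6.13% when up to 5 TPM was allowed in the other livers. The 6 IDs chosen on brain stood at 20.6%, 29.0%, 53.5% and 96.3% of their spleen level. They had no limit in liver, so these values do not measure spleen-restricted IDs. The causes were not tested. TPM keeps no depth, so what depth limits is unknown.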
